A study of Homo sapiens with 24 samples.

Results

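Hypoxic HCT116 cells that carry an ESR2 transgene were compared with hypoxic parental HCT116 cells, both under 17β-estradiol, by 6 of the 24 arrays of the series. HCT116 is an established human colon cancer line, and estrogen receptor beta is the protein of ESR2. The first group, called ESR2 cells here, is labelled as overexpressing ESR2: a full-length cDNA with an N-terminal HaloTag in the lentiviral vector pWPI-IRES-GFP-PGK-Puro, puromycin selection, and repeated infection until most cells were GFP positive, so that a pool and not a clone was measured. The second group is the parental line, labelled wild type. A vector control is not given in the sources used here, so receptor, tag, GFP, infection and selection cannot be told apart. All 6 cultures shared 10 nM 17β-estradiol, the main natural estrogen, given in phenol-red-free medium with charcoal-stripped serum, and hypoxia made by flushing the incubator with CO2 and nitrogen for a time that is not given in the sources used here. The arrays were chosen by their titles, 3 for each group. Set beside them are ESR2 and parental cells in hypoxia without estradiol and in normoxia with estradiol, 3 arrays each. Whether the 3 arrays of a group came from cultures grown apart is not given in the labels, so p-values speak only of the variation among these arrays, part or all of which may be technical.

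Estrogen receptor beta is a nuclear receptor that binds estradiol, pairs with itself or with estrogen receptor alpha, and acts on transcription at estrogen response elements or through other factors such as AP-1. It is the main estrogen receptor of the normal colon epithelium, and its level is known to fall in colon tumours. In low oxygen the prolyl hydroxylases that mark the alpha subunits of hypoxia-inducible factor (HIF) for destruction by the VHL complex slow down. HIF-1 then pairs its alpha subunit with ARNT and switches on genes of glucose use, blood vessel growth and histone demethylation. The series asks whether the receptor changes how colorectal cancer cells respond to hypoxia.

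With estradiol in hypoxia, ESR2 cells differed from parental cells in 8692 of 18239 genes (47.7%) at an adjusted p under 0.05. Of these, 5074 genes (27.8%) were higher in ESR2 cells and 3618 (19.8%) were lower. Counted past 2-fold as well, the balance turned, with 690 genes (3.78%) higher and 952 (5.22%) lower. The values of the 2 groups did not overlap for 10354 genes (56.8%). Among the 7189 genes with a known genomic span and a mean log2 signal above 6, 2548 (35.4%) were higher and 2604 (36.2%) lower. Their median change was 6.7e-05, so the excess of higher over lower calls was not seen among these brighter genes. Every level below is the log2 signal of the brightest probe set of a gene, every change is the ESR2 mean minus the parental mean on that log2 scale with its standard error (SE), and n is 3 arrays a group. The same contrast gave 7369 genes (40.4%) in hypoxia without estradiol, 3726 (20.4%) higher and 3643 (20%) lower, of which 493 (2.7%) and 194 (1.06%) were past 2-fold. In normoxia with estradiol it gave 2494 genes (13.7%), 1542 (8.45%) higher and 952 (5.22%) lower, of which 59 (0.323%) and 12 (0.0658%) were past 2-fold. The median change over all genes was 0.07, -0.06 and -0.01 in these comparisons, in that order.

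The control probe sets differed between the groups too. A control difference was formed on each array as the 3′ minus the 5′ signal, averaged over the spike-in transcripts dap and thr and over beta-actin. It was 3.42, 4.01 and 3.80 on the arrays of ESR2 cells in hypoxia with estradiol and 2.54, 2.55 and 2.57 on those of parental cells. All arrays of ESR2 cells lay above all arrays of parental cells, by 1.19 on average, with an exact two-sided permutation p of 0.1, the smallest that 3 against 3 arrays allow. Replicate 2 of parental normoxia without estradiol had 4.34, and the remaining 20 arrays, the 3 parental ones above included, lay between 2.00 and 3.10. The group means were 2.10 in ESR2 and 2.36 in parental cells in hypoxia without estradiol, and 2.69 and 2.57 in normoxia with it. Of the spike-ins, which are added to the RNA and are not made by the cells, 3′ minus 5′ was higher by 1.28 for dap, 1.33 for thr and 0.46 for phe with no overlap. It was 0.30 higher for lys and 0.04 for trpX, with overlapping groups and exact permutation p of 0.2 and 0.3. For beta-actin the difference was 0.95 and for GAPDH 0.17. For 18S ribosomal RNA both ends were lower in ESR2 cells. Its 5′ end gave 11.08 ± 0.08 (SD, n = 3) in ESR2 and 12.58 ± 0.01 in parental cells, and its 3′ end 10.72 ± 0.12 and 11.81 ± 0.003. For 28S ribosomal RNA both ends were higher in ESR2 cells, at 12.31 ± 0.17 against 11.89 ± 0.04 (5′) and 4.50 ± 0.05 against 4.22 ± 0.11 (3′). The part of these differences in the changes below was not tested. Entered as a covariate in the model, the control difference left 7237 genes called (3654 higher and 3583 lower). With replicate 2 of parental normoxia also left out, 5937 were called (2907 and 3030). The covariate's slope comes from differences within groups, while the 2 groups compared did not overlap in the control difference. These fits therefore cannot settle its part in the changes.

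**Figure D1:**
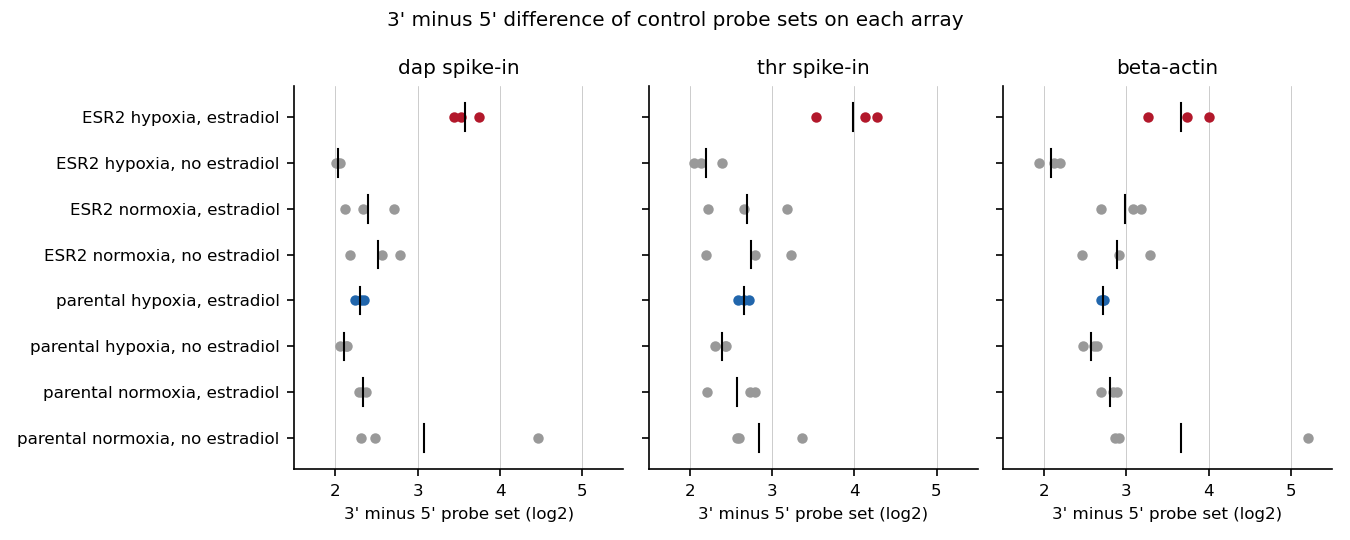
The 3′ minus 5′ signal (log2) of the dap and thr spike-ins and of beta-actin on each of the 24 arrays, by group, with a point for each array and a line for the group mean. For dap, hypoxic ESR2 cells with estradiol lie at 3.44 to 3.75 and parental cells of that condition at 2.24 to 2.34.

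The signal of ESR2 was low in all groups and higher in ESR2 cells. It read 3.95, 3.93 and 3.92 in ESR2 cells and 3.40, 3.50 and 3.53 in parental cells in hypoxia with estradiol. The groups did not overlap, and the change was 0.46 (SE 0.13, adjusted p = 0.00608). The same contrast was 0.64 in hypoxia without estradiol and 0.97 in normoxia with estradiol, and the ESR2 means in those conditions were 4.07 ± 0.11 and 4.41 ± 0.07 (SD, n = 3). The difference between the hypoxic and the normoxic contrast under estradiol was -0.52 (SE 0.19, adjusted p = 0.0318). Of 8 probe sets of the gene, 1 was called, and the others changed by -0.17 to 0.21. With the control difference as a covariate the change of ESR2 was 0.25 (adjusted p = 0.24), so the call on ESR2 signal rests on the model without it. Whether any probe set lies within the cDNA is not given in the sources used here, so these levels do not check the transgene. Of the other receptors of estrogens, ESR1 (estrogen receptor alpha) read 4.24 ± 0.20 against 4.08 ± 0.15 and GPER1 (the membrane receptor) 5.38 ± 0.27 against 5.28 ± 0.11, each with overlapping groups and an adjusted p of 0.166 and 0.437. Over the mean of its 9 probe sets GPER1 was higher by 0.36 (adjusted p = 7.16e-07), and ESR1 passed the threshold without ESR2 replicate 2 (0.25, adjusted p = 0.0463). ESRRA, an orphan receptor of the family that binds no estrogen, was higher by 0.29 (SE 0.10, adjusted p = 0.0203), a call that was lost with the control difference as a covariate (0.04) and without parental replicate 3 (0.23) or ESR2 replicate 2 (0.24).

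Known targets of HIF were lower in ESR2 cells. Of 36 measured, 24 were lower, 4 were higher and 8 did not pass the threshold, with a median change of -0.76 beside 0.07 over all genes. The largest was KDM4B, a histone demethylase whose transcription HIF-1 is known to raise, with 6.03, 6.58 and 6.12 in ESR2 cells and 9.24, 9.21 and 9.24 in parental cells. The lowest parental array stood above the highest ESR2 array by more than 2 log2 units, and the mean was 7.94-fold lower (-2.99, SE 0.14, adjusted p = 2.37e-14). Of its 4 probe sets all were lower but 1 was called, and the weakest changed by -0.03. BHLHE40, a transcriptional repressor of the clock and of differentiation, read 5.85, 5.73 and 5.47 against 8.34, 8.10 and 8.01. Again no ESR2 array reached a parental one, at 5.53-fold lower (-2.47, SE 0.14, adjusted p = 5.23e-13). VEGFA, the secreted factor that draws blood vessels, read 9.03, 8.98 and 8.71 against 10.53, 10.49 and 10.53. It was 3.06-fold lower (-1.61, SE 0.09, adjusted p = 4.39e-13), with 10 of its 10 probe sets lower and 9 of them called.

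Further HIF targets were lower too. HK2, the hexokinase that HIF adds to glycolysis, read 8.986, 8.996 and 8.838 against 9.990, 10.047 and 10.023, which is 2.11-fold lower (adjusted p = 7.26e-12) with no overlap; its other probe set, at -0.09, was not called. ZNF395, a zinc finger protein induced in hypoxia, was 3.73-fold lower (SE 0.08 on the log2 scale, adjusted p = 7.9e-15). HILPDA, which coats lipid droplets in hypoxia, changed by -1.27, NDRG1, a stress response protein, by -0.93, and SLC2A1, the glucose transporter GLUT1, by -0.70, each with an adjusted p of 1.34e-07 or less. The 4 higher targets were EFNA1, a ligand of Eph receptors (0.75), PLOD2, a collagen lysyl hydroxylase (0.38), KDM3A, another histone demethylase (0.25), and P4HA1, a collagen prolyl hydroxylase (0.23, adjusted p = 0.0493), whose call was lost without any 1 of the arrays compared but ESR2 replicate 3. Only 1 target was higher, and 24 lower, when the control difference was a covariate and replicate 2 of parental normoxia was left out. HILPDA, NDRG1, SLC2A1 and these 4 were chosen after their values were seen.

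Across conditions, the gap between ESR2 and parental cells was wider in hypoxia than in normoxia. VEGFA averaged 10.52 ± 0.02 in parental and 8.91 ± 0.17 in ESR2 cells in hypoxia with estradiol, 10.54 ± 0.06 and 9.60 ± 0.10 in hypoxia without it, and 8.64 ± 0.09 and 8.38 ± 0.12 in normoxia with it (SD, n = 3). BHLHE40 averaged 8.37 ± 0.09 in parental and 6.52 ± 0.21 in ESR2 cells in hypoxia without estradiol, where 6.52 lay between the ESR2 and parental means with estradiol (5.68 ± 0.20 and 8.15 ± 0.18), and 4.72 to 5.26 in the normoxic groups. In normoxia with estradiol 8 targets were higher and 2 lower in ESR2 cells (median 0.05). The test of the difference between the hypoxic and normoxic contrast called 26 targets more negative and 1 more positive in hypoxia, with a median difference of -0.82. Against hypoxia without estradiol, where 24 targets were lower and 3 higher (median -0.40), 15 were more negative with estradiol and 8 more positive.

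**Figure D2:**
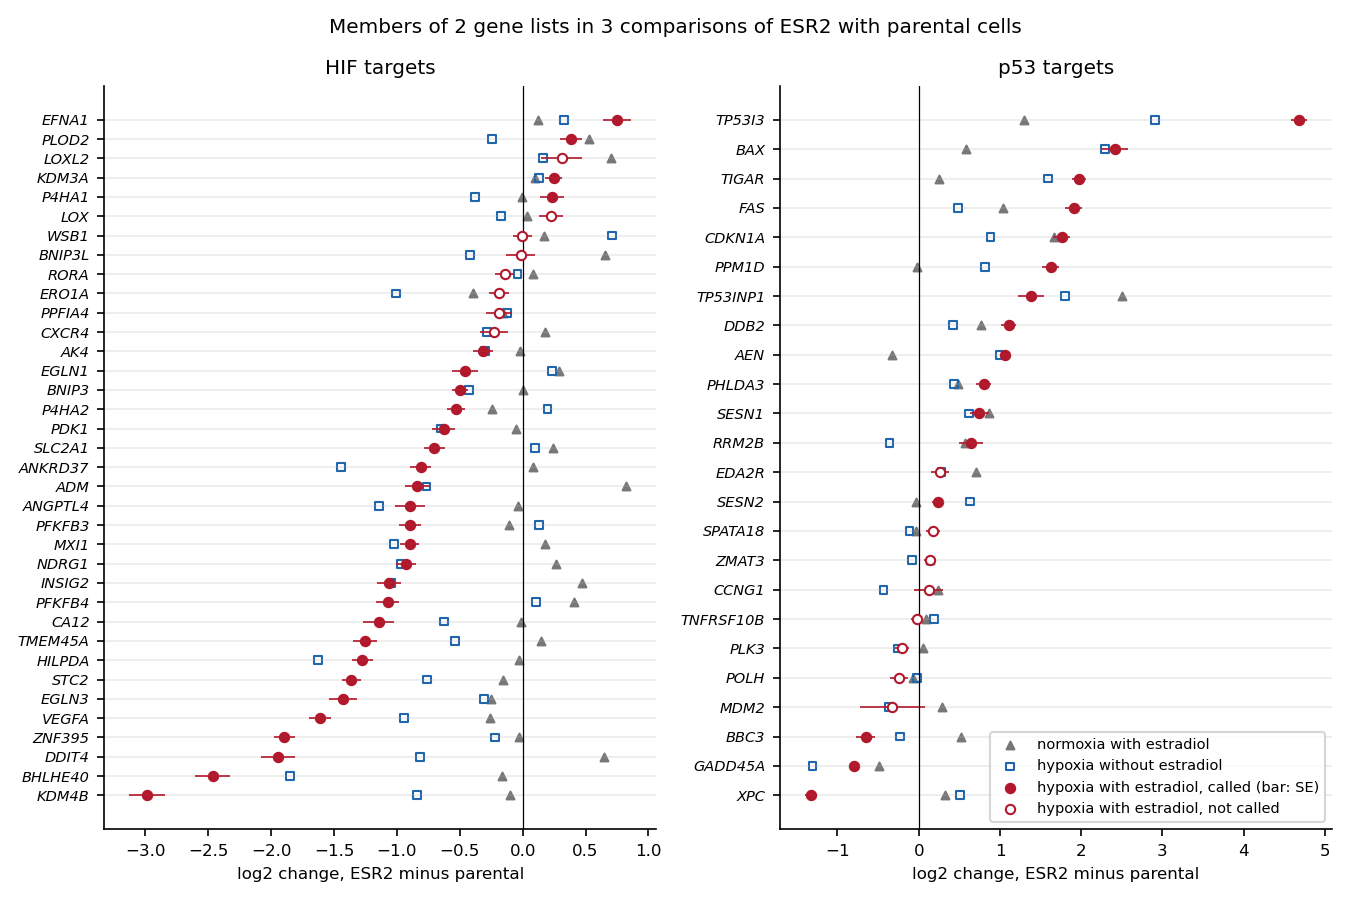
Change (log2, ESR2 minus parental) of each HIF target and p53 target in hypoxia with estradiol (round points, filled where called, with SE bars), hypoxia without estradiol (squares) and normoxia with estradiol (triangles), with 3 arrays a group. KDM4B (-2.99) and BHLHE40 (-2.47) lie at the lower end of the HIF targets and TP53I3 (4.68) at the upper end of the p53 targets.

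The genes of oxygen sensing themselves were split. Of 14, 7 were higher and 5 lower (median 0.08), and with the control difference as a covariate 3 were higher and 4 lower. HIF1A, the alpha subunit of HIF-1, read 8.30, 8.44 and 8.29 in ESR2 cells and 9.44, 9.45 and 9.47 in parental cells. The groups did not overlap, the mRNA was 2.16-fold lower (-1.11, SE 0.09, adjusted p = 3.34e-10), and 8 of 8 probe sets were called lower. In hypoxia without estradiol HIF1A averaged 8.65 ± 0.12 in ESR2 and 9.43 ± 0.06 in parental cells, and in normoxia with estradiol 10.41 ± 0.01 and 10.15 ± 0.07. The normoxic contrast, 0.26, did not pass the threshold (adjusted p = 0.0555), and the hypoxic one differed from it by -1.37 (SE 0.13, adjusted p = 7.99e-09). The other lower genes were EGLN3 (-1.43) and EGLN1 (-0.46), prolyl hydroxylases of HIF, ARNT, the partner subunit (-0.72), and ARNT2, its relative (-0.61, chosen after its value was seen). ARNT changed by 0.05 when all its probe sets were averaged, so its direction depends on the probe set, and the call of ARNT2 was lost over the mean of its own (-0.13). The call of EGLN1 was lost with the covariate (-0.31, adjusted p = 0.0556). VHL, which tags HIF for destruction, was higher by 0.49 (SE 0.16, adjusted p = 0.0139). Its call was lost over the mean of probe sets (0.30) and without parental replicate 1 (0.45), parental replicate 2 (0.44) or ESR2 replicate 3 (0.40). HIF1AN, the asparagine hydroxylase that blocks HIF's activation domain, was higher by 0.57 (SE 0.07, adjusted p = 4.13e-07). EPAS1, the alpha subunit of HIF-2, read 7.17 ± 0.11 against 7.33 ± 0.07 with overlapping groups (adjusted p = 0.154).

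Promoters are shown for 3 lowered HIF targets and for ID2, the strongly raised gene described further on, since the shared short letters recognised by HIF are found in genes that moved both ways. They come from RefSeq on build GRCh38.p14, plus strand, 5′ to 3′, and hold the 250 bases before each transcription start: KDM4B at chr19:4968863-4969112, BHLHE40 at chr3:4979187-4979436, HK2 at chr2:74833877-74834126 and ID2 at chr2:8681806-8682055. Capitals mark ACGTG or GCGTG, the cores of hypoxia response elements, on either strand, and CACGTG holds ACGTG once on each strand.
KDM4B: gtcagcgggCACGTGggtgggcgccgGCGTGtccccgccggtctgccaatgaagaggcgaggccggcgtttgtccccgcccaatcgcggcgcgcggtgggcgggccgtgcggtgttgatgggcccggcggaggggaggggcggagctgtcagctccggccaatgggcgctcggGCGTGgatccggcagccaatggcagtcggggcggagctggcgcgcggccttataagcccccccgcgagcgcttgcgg
BHLHE40: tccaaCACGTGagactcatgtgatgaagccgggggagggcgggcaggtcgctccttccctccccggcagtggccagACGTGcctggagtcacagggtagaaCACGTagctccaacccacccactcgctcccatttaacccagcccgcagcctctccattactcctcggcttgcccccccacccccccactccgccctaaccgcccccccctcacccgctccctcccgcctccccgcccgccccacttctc
HK2: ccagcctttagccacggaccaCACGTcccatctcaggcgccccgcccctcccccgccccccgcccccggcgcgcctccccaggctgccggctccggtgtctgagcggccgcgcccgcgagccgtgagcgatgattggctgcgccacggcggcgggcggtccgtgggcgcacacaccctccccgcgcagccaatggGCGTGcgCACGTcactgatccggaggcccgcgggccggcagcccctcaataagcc
ID2: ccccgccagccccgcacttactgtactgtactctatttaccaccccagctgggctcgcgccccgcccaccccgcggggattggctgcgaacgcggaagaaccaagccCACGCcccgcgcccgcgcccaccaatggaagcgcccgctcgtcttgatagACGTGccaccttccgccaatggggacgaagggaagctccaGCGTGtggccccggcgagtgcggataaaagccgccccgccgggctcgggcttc

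Counted on both strands, KDM4B and BHLHE40 held 4 core matches each, and HK2 and ID2 held 3 each. In BHLHE40 all matches are of ACGTG, and KDM4B has both forms. Either core stood in 23 of 30 HIF targets with a promoter in the table (76.7%), beside 7393 of 14492 measured genes (51%); ACGTG alone stood in 50% and 21% of them. The 15 genes with the largest rises included 10 with a promoter, of which 6 (60%) held a core, and the 15 with the largest falls included 12, of which 9 (75%) did. The full estrogen response element, GGTCA and TGACC with any 3 bases between them, stood in 2 of the 14492 promoters (0.0138%) and in none of the 140 promoters of genes named by rule. The AP-1 site TGANTCA stood in 10 of those 140 (7.14%) and in 5.02% of all. A match is only a stretch of letters, and no binding was measured.

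Targets of p53, the transcription factor that answers DNA damage and other stress, were mostly higher. Of 24, 13 were higher, 3 lower and 8 not called, with a median of 0.45. TP53I3, a quinone oxidoreductase induced by p53, had the largest rise of all genes: it read 9.77, 9.83 and 9.76 in ESR2 cells and 5.23, 5.07 and 5.04 in parental cells. The groups were 25.6-fold apart (4.68, SE 0.10, adjusted p = 1.51e-19). CDKN1A, the cyclin-dependent kinase inhibitor p21, read 10.44, 10.48 and 10.36 against 8.66, 8.62 and 8.71. All ESR2 arrays were higher, at 3.39-fold (1.76, SE 0.10, adjusted p = 1.15e-12), and CDKN1A was chosen after its values were seen. TIGAR, a phosphatase that slows glycolysis, rose by 1.97, and FAS, a death receptor, by 1.91. The lower ones were XPC, a sensor of damaged DNA (-1.33), GADD45A, a growth arrest gene (-0.80), and BBC3, the death promoting PUMA (-0.65), the last 2 chosen after their values were seen.

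The p53 targets were compared across conditions. In hypoxia without estradiol 14 were higher and 2 lower, and in normoxia with estradiol 12 and 2. CDKN1A was higher in ESR2 cells by 1.66 in normoxia with estradiol, and the difference between the oxygen levels was 0.10 (SE 0.15, adjusted p = 0.638). TP53I3 was higher by 1.30 in normoxia with estradiol and 2.91 in hypoxia without it, and its contrast in hypoxia with estradiol exceeded them by 3.38 (SE 0.14, adjusted p = 2.18e-14) and 1.77 (SE 0.14, adjusted p = 1.3e-09). XPC was higher in ESR2 cells in both other conditions, by 0.51 and 0.33, and its contrast in hypoxia with estradiol differed from them by -1.83 (SE 0.11, adjusted p = 1.27e-11) and -1.65 (SE 0.11, adjusted p = 2.09e-11). GDF15, a secreted stress cytokine that p53 also induces, was higher in all 3: 8.21, 7.68 and 7.71 against 5.12, 5.28 and 5.22 here, a change of 2.66 (SE 0.16, adjusted p = 1.38e-12), beside 2.99 in hypoxia without estradiol and 3.14 in normoxia with it.

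Regulators of apoptosis were called in both directions, 8 higher and 8 lower of 25 (32% each, beside 27.8% and 19.8% over all genes). Among the promoters of death, BAX, which opens the outer mitochondrial membrane, read 7.31, 7.21 and 7.17 against 4.89, 4.69 and 4.87, a rise of 2.41 (SE 0.16, adjusted p = 1.23e-11). BCL2L11, the BH3 protein BIM, rose by 2.47 (SE 0.10, adjusted p = 1.64e-15), and 14 of its 14 probe sets were higher. Among the guards against death, MCL1 fell by 1.30 and CFLAR, which blocks caspase-8, fell by 1.12. The median of the list was 0.05. BAX was chosen after its values were seen.

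Replication genes were called in both directions, and the E cyclins rose. Of 44 DNA replication genes, 22 (50%) were higher and 12 (27.3%) lower (median 0.17), beside 27.8% and 19.8% over all genes. In normoxia with estradiol the counts were 0 and 7, and in hypoxia without it 23 and 3. CCNE2, the cyclin that starts S phase, read 9.92, 10.31 and 10.08 in ESR2 cells and 6.41, 6.51 and 6.63 in parental cells. The ESR2 arrays were 12-fold higher (3.59, SE 0.13, adjusted p = 4.91e-16), and CCNE2 averaged 10.11 ± 0.20 here (SD, n = 3). Its sister CCNE1 rose by 1.65 (SE 0.06, adjusted p = 1.31e-15), GINS4, a part of the replicative helicase, by 1.61, while PRIM2, a primase subunit, fell by 1.14. Mitosis genes were mixed, with 11 of 34 higher (32.4%) and 9 lower (26.5%), beside 27.8% and 19.8% over all genes. The motor KIF11 (0.90), the kinase AURKB (0.79) and the kinetochore protein NDC80 (0.61) were higher. CDC25C, the phosphatase that starts mitosis, was lower (-1.13, SE 0.08, adjusted p = 2.39e-11).

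Genes of cholesterol synthesis were lower. Of 20, 13 were lower, 1 higher and 6 not called (median -0.46). INSIG1, which holds the sterol sensor in the endoplasmic reticulum and is itself a target of SREBP, read 9.33, 9.37 and 9.39 against 11.11, 11.05 and 11.03. The spread within groups was small beside the 3.25-fold gap (-1.70, SE 0.08, adjusted p = 2.32e-14). MSMO1, a demethylase of sterol precursors that needs oxygen, read 9.44, 9.52 and 9.46 against 11.16, 11.09 and 11.10, 3.12-fold lower (-1.64, SE 0.06, adjusted p = 3.19e-16). HSD17B7, which reduces sterol precursors and also makes estradiol from estrone, changed by -1.38. The higher gene was TM7SF2, a sterol reductase (1.29, SE 0.09, adjusted p = 8.29e-12, chosen after its value was seen). In normoxia with estradiol 1 gene of the list was called, and MSMO1 averaged 9.69 to 9.87 in the normoxic groups, so hypoxic parental cells, at 11.11 ± 0.04 with and 11.14 ± 0.03 without estradiol, stood apart from the rest. In hypoxia without estradiol 14 genes were lower and 2 higher (median -0.38).

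Fatty acid synthesis was divided, with 10 of 23 genes higher (43.5%) and 9 lower (39.1%), beside 27.8% and 19.8% over all genes. ACACA, the acetyl-CoA carboxylase that commits carbon to fatty acids, fell by 1.92 on the log2 scale (SE 0.09, adjusted p = 5.16e-14), ME1, which supplies NADPH, by 1.46, and ELOVL5, an elongase, by 1.05. ACSL5, which activates long-chain fatty acids, rose by 1.34. The sign of the list's median, 0.10, turned when dim genes were left out (-0.04), and with the control difference as a covariate (-0.09). In glycolysis 9 of 21 genes (42.9%) were lower and 5 (23.8%) higher, with a median of -0.15. Beside HK2, PFKFB4 (-1.08) and PFKFB3 (-0.90), which make the compound that activates phosphofructokinase, were lower. The higher genes were GPI (0.85), the phosphofructokinase PFKL (0.61), the aldolase ALDOC (0.30), TPI1 (0.15, adjusted p = 0.0477) and the pyruvate kinase PKM (1.09). The call of TPI1 was lost under 13 alternatives, among them the covariate (0.065) and each fit that left out 1 of the 6 arrays compared. Of 36 genes of oxidative phosphorylation 13 (36.1%) were lower and 4 (11.1%) higher, with a median of -0.06. Among genes with a known span and a mean signal above 6, 36.2% were lower and 35.4% higher. NDUFV2 (-0.73) and NDUFS1 (-0.54) of complex I and SDHA of complex II (-0.54) were lower, and NDUFA2 (0.57), NDUFB10 (0.46), ATP5MC1 (0.35) and CYC1 (0.22; 0.098 and not called with the covariate) higher. The number called lower was 5 with the control difference as a covariate and replicate 2 of parental normoxia left out. PFKL, ALDOC, TPI1, PKM, NDUFB10, ATP5MC1 and CYC1 were chosen after their values were seen.

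Antigen presentation genes were higher. Of 21, 15 were higher and 0 lower (median 0.62; 0.39 with the control difference as a covariate, and 0.41 with 1 lower over the mean of probe sets), beside 8 and 1 in hypoxia without estradiol and 6 and 2 in normoxia with it. TAP1, the peptide transporter of class I presentation, read 8.76, 8.68 and 8.57 against 7.69, 7.76 and 7.72, a rise of 1.92-fold (0.94, SE 0.07, adjusted p = 1.97e-10) with no overlap. PSMB9, an immunoproteasome subunit, rose by 1.00, ERAP1, which trims peptides, by 1.25, and B2M, the light chain of class I, by 0.42 (chosen after its value was seen). HLA-DRA, the alpha chain of a class II molecule, read 6.46, 6.41 and 6.33 against 4.60, 4.73 and 4.85. It was 3.19-fold higher (1.67, SE 0.08, adjusted p = 9.4e-14) and by 1.53 higher in normoxia with estradiol too, with a difference of 0.15 between the oxygen levels (SE 0.12, adjusted p = 0.352). The test of the difference from hypoxia without estradiol called 11 of the 21 genes more positive and 0 more negative.

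Of 32 genes of the type I interferon response 20 were higher, 3 lower and 9 not called (median 0.31). IRF7, the factor that amplifies interferon transcription, read 7.83, 7.89 and 8.07 in ESR2 cells and 5.42, 5.47 and 5.50 in parental cells. The gap was 5.52-fold (2.47, SE 0.13, adjusted p = 1.41e-13), and the means of the 7 other groups lay between 5.40 and 6.01, so IRF7 stood apart in hypoxic ESR2 cells with estradiol alone. The contrast exceeded that in hypoxia without estradiol by 2.07 (SE 0.18, adjusted p = 5.63e-09) and that in normoxia with it by 2.30 (SE 0.18, adjusted p = 5.39e-10). PARP9, which assists interferon signalling, rose by 1.56, IRF1 by 1.52 and IFI6, a mitochondrial survival protein, by 1.32. The lower genes were IFIT2 (-1.28) and IFIT3 (-0.77), which bind foreign RNA, and the helicase DDX60 (-1.02), all chosen after their values were seen. With the control difference as a covariate 13 were higher, and 10 with replicate 2 of parental normoxia left out too.

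Immediate early genes and the feedback of MAP kinase signalling were lower: 19 of 34 were lower and 7 higher (median -0.37). EGR1, the zinc finger factor that answers growth signals within minutes, read 8.74, 8.74 and 8.43 against 10.30, 10.32 and 10.32. The ESR2 arrays lay 3.19-fold lower (-1.68, SE 0.11, adjusted p = 7.21e-12), and 6 of 6 probe sets were called lower. KLF6, a growth suppressor of the same wave, fell by 1.62 and DUSP5, the phosphatase of nuclear ERK, by 1.41. In normoxia with estradiol 13 were lower and 2 higher, in hypoxia without it 12 and 10.

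Upstream of these genes, EGFR, the receptor of epidermal growth factor, read 5.30, 5.51 and 5.32 against 7.15, 7.32 and 7.53. The brightest probe set was 3.88-fold lower (-1.96, SE 0.11, adjusted p = 3.13e-13) with no overlap, but only 4 of 8 probe sets moved the same way and 2 were called. ERRFI1, a feedback inhibitor of the receptor, fell by 1.32 and CBL, the ligase that marks it for destruction, by 1.06. HBEGF, a ligand, read 8.04, 8.24 and 7.76 against 6.18, 6.07 and 6.12 and was 3.71-fold higher (1.89, SE 0.10, adjusted p = 1.46e-13). Of 18 genes of the family and its signalling 7 (38.9%) were lower and 3 (16.7%) higher, beside 19.8% and 27.8% over all genes. The other higher genes were SOS1 (0.50), the exchange factor of RAS, and the ligand EPGN (0.32), both chosen after their values were seen. The call of SOS1 was lost over the mean of probe sets (0.11) and that of EPGN without parental replicate 1 (0.30) or ESR2 replicate 2 (0.28).

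Genes of the Hippo pathway and targets of YAP, the factor held back by the Hippo kinases, were lower more often than higher. Of the 25 listed together, 13 were lower and 2 higher (median -0.23), beside 12 and 5 in hypoxia without estradiol and 9 and 2 in normoxia with it. FJX1, a secreted growth regulator, changed by -1.70, CRIM1, a membrane protein that binds growth factors, by -1.55, LATS2, a Hippo kinase under feedback from YAP, by -1.52, and F3, tissue factor, by -1.43. F3 was lower by a similar amount in normoxia with estradiol (-1.30), and the difference was -0.13 (SE 0.11, adjusted p = 0.368). The higher genes were TEAD2 (0.35) and TEAD3 (0.50), DNA-binding partners of YAP, chosen after their values were seen; 4 were higher without replicate 3 of ESR2 cells, and 0 with the control difference as a covariate.

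The ID genes, inhibitors of basic helix-loop-helix factors that answer BMP signals, went apart. ID2 read 10.10, 10.17 and 9.87 against 7.07, 7.09 and 7.04, which is 7.89-fold higher (2.98, SE 0.08, adjusted p = 7.87e-18). ID3 rose by 1.22 (SE 0.06, adjusted p = 6.34e-14), and ID1 fell by 1.12 (SE 0.05, adjusted p = 4.57e-14). No array of either group overlapped the other for any of these genes. ID1 did not pass the threshold in hypoxia without estradiol (adjusted p = 0.999), and the difference between the 2 contrasts was -1.12 (SE 0.08, adjusted p = 1.55e-10), while ID2 was higher there by 2.38. Over the 26 genes of TGF-beta, BMP and ID signalling, 7 were higher and 9 lower (median -0.02). These are 26.9% and 34.6%, beside 27.8% and 19.8% over all genes.

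Among all genes, the 15 largest rises were between 2.73 and 4.68 on the log2 scale. After TP53I3 and CCNE2 came EPM2AIP1 (3.35), a partner of the glycogen phosphatase laforin, and FAM200C (3.31). IL17RB, a receptor of interleukin-25, read 8.75, 8.74 and 8.69 against 5.65, 5.85 and 5.65, 8.06-fold higher (3.01, SE 0.07, adjusted p = 5.38e-19). Its sign was the opposite in normoxia with estradiol, at -0.47 (adjusted p = 6.46e-05). AKR1B10, an aldo-keto reductase under NRF2, read 6.76, 7.16 and 7.16 against 4.08, 4.19 and 3.94, 7.76-fold higher (2.96, SE 0.14, adjusted p = 2.21e-14). SLC35G1 (2.94), TST, the sulfur transferase rhodanese (2.80), TMEM38A, a potassium channel of the endoplasmic reticulum (2.79), RGS2, a brake on G protein signals (2.74), PSPC1, a paraspeckle protein (2.74), SOCS4 (2.74), MAL2, which carries cargo to the apical membrane (2.73), and GALNT4, which starts mucin-type glycans (2.73), completed the list with ID2. MAL2 was the member whose contrast was larger in normoxia with estradiol, at 3.33.

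The 15 largest falls were between -2.96 and -4.20. LCORL, a nuclear protein known for its link to body height, read 4.28, 3.90 and 4.59 in ESR2 cells and 8.49, 8.47 and 8.41 in parental cells. It was 18.4-fold lower (-4.20, SE 0.11, adjusted p = 1.62e-18), and averaged 5.60 in ESR2 and 8.55 in parental cells in hypoxia without estradiol. IMMP2L, a peptidase of the inner mitochondrial membrane, read 4.53, 3.90 and 4.52 against 7.97, 8.12 and 8.25, 13.9-fold lower (-3.80, SE 0.12, adjusted p = 6.2e-17). ARID1B, a subunit of the SWI/SNF chromatin remodeller, read 3.65, 4.01 and 4.01 against 7.27, 7.29 and 7.24, 10.4-fold lower (-3.38, SE 0.10, adjusted p = 1.57e-17). The 7 other group means of ARID1B lay between 7.24 and 7.41, so this gene was low in hypoxic ESR2 cells with estradiol alone. PRKCA, the kinase PKC alpha, read 4.35, 4.25 and 4.24 against 7.43, 7.46 and 7.49, 9.05-fold lower (-3.18, SE 0.07, adjusted p = 4.21e-19). MALAT1, a long nuclear RNA, read 5.38, 6.57 and 6.50 against 9.07, 9.24 and 9.44 and had the widest spread of these genes among ESR2 arrays (SD 0.67). The others were BRWD1 (-3.32), which holds bromodomains, TMEFF1 (-3.13), DOCK1 (-3.08), KDM4B, ZMIZ1 (-2.98), SBF2 (-2.98), the methyltransferase SMYD3 (-2.98), AUH (-2.97), the Hippo kinase STK3 (-2.97) and the SUMO ligase NSMCE2 (-2.96).

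**Figure D3:**
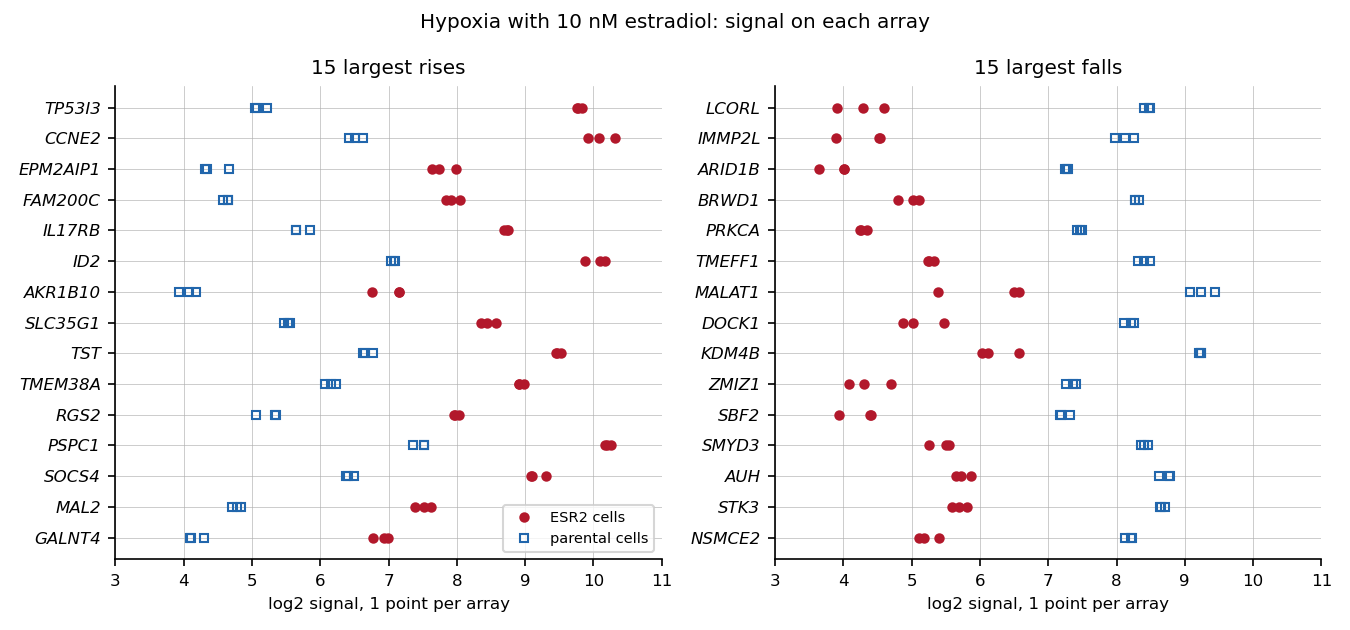
Levels (log2 signal) of the 15 genes with the largest rises and the 15 with the largest falls, with a point for each array of ESR2 and parental cells in hypoxia with estradiol. The groups do not overlap for any of these genes, and the span runs from 4.68 for TP53I3 to -4.20 for LCORL.

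Other probe sets of the same genes moved less. For the 8 largest rises with more than 1 probe set, the median change was 2.86 in the brightest and 0.89 in the others, with the same sign in 8 of 8. For the 13 such falls it was -3.08 and -0.74, with the same sign in 10 of 13. BRWD1 (2 of 6 probe sets lower), IMMP2L (1 of 2) and SMYD3 (1 of 2) were the falls whose other probe sets, by their median, did not go down. The other probe set of SMYD3 was called higher (0.35), as was 1 of BRWD1, while that of IMMP2L (0.12) was not called. Of the rises, PSPC1 had 1 of its 5 probe sets called higher and 1 called lower (-0.72).

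All but 1 of the 15 largest falls were in long genes. The genomic span from start to end, in RefSeq on GRCh38.p14, had a median of 275 kb over the 15 largest falls (8.78 to 900 kb), with 14 of them over 100 kb, and of 13.8 kb over the 15 largest rises (2.41 to 112 kb), with 1 over 100 kb. MALAT1, at 8.78 kb, was the short one among the falls. Over the 7189 genes with a mean signal above 6, whose median span was 30.1 kb, the median change went from 0.20 for 1464 genes under 10 kb to -0.12 for 1243 genes of 50 to 100 kb, -0.39 for 803 genes of 100 to 200 kb, -0.87 for 310 genes of 200 to 500 kb and -1.63 for 41 genes over 500 kb. The share called lower was 19.5% in the shortest and 87.8% in the longest class, and 32 of the 41 longest (78.0%) were lower by more than 2-fold.

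The same classes differed less in the other conditions. In hypoxia without estradiol the median was 0.09 for the shortest and -0.54 for the longest, and in normoxia with estradiol 0.02 and 0.10. Spearman's rho across these 7189 genes, which are not independent replicates, was -0.34, -0.14 and 0.03 in the 3 comparisons. With the control difference as a covariate the class medians in hypoxia with estradiol were 0.11, 0.04, -0.07, -0.35, -0.84 and -1.65, from short to long. With no minimum on signal the medians were smaller, 0.12, 0.09, 0.03, -0.05, -0.09 and 0.02 from short to long, and the share called lower was 7.93% under 10 kb, 42.1% from 200 to 500 kb and 28.6% over 500 kb. The 3′ minus 5′ difference of the controls, higher by 1.19 here, moved in the same comparison. Its values did not overlap between the groups compared, and the covariate's slope comes from differences within groups. The covariate therefore cannot settle the part of the control difference in the relation to span, which was not tested otherwise. Class medians with replicate 2 of parental normoxia, at 4.34, left out are not given.

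**Figure D4:**
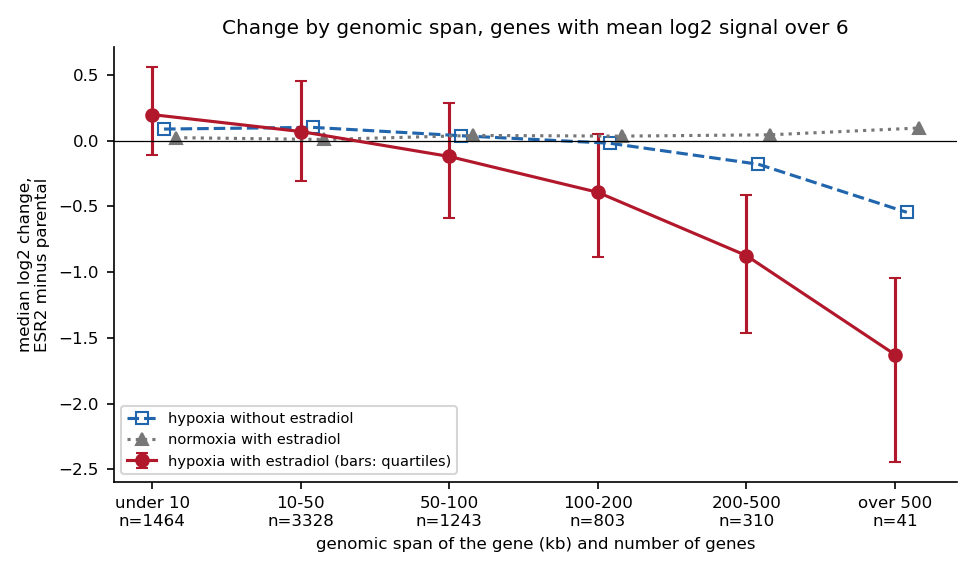
Change (log2, ESR2 minus parental) by genomic span in kb for genes with a mean signal above 6, in hypoxia with estradiol, hypoxia without it and normoxia with it. The median falls from 0.20 under 10 kb to -1.63 over 500 kb in hypoxia with estradiol, and lies between 0.01 and 0.10 in normoxia with it.

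Genes known to answer estrogen, mostly from breast cells, showed no common direction. Of 34, 13 were higher (38.2%), 8 lower (23.5%) and 13 not called (median 0.07), beside 27.8% and 19.8% over all genes. With the control difference as a covariate 7 were higher and 10 lower. MYB, a transcription factor of progenitor cells, read 5.91, 6.04 and 5.94 against 4.18, 4.23 and 4.20, 3.40-fold higher (1.76, SE 0.11, adjusted p = 3.71e-12). MAPT, the microtubule protein tau, fell by 1.27 and CA12, a carbonic anhydrase that HIF also induces, by 1.15. STC2, a secreted glycoprotein, changed by -1.36 (SE 0.08, adjusted p = 5.88e-13) at its brightest probe set, but its 2 other probe sets were called higher and the mean of all was 0.46 higher. GREB1, a coactivator often used as a readout of estrogen receptor alpha, changed by -0.81 (SE 0.14, adjusted p = 3.83e-05), with 5.67, 5.43 and 4.96 against 6.16, 6.16 and 6.15, and was higher in ESR2 cells in hypoxia without estradiol (0.50) and in normoxia with it (0.93). It was chosen after its values were seen.

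Of 31 receptors, cofactors and estrogen-converting enzymes, 12 (38.7%) were higher and 6 (19.4%) lower (median 0.13), beside 27.8% and 19.8% over all genes. CREBBP, the acetyltransferase CBP that nuclear receptors and HIF share, read 6.73, 6.97 and 6.49 against 8.35, 8.31 and 8.36, 3.05-fold lower (-1.61, SE 0.10, adjusted p = 1.94e-12). Its contrast in hypoxia without estradiol was 0.31, so the difference was -1.92 (SE 0.14, adjusted p = 2.7e-10). The coactivators NCOA4 (1.16) and NCOA5 (1.50) were higher, and NCOA5 was higher by more, 3.05, in hypoxia without estradiol. HSD17B8, which oxidises estradiol, was higher by 0.92 here and lower by 0.71 there (-0.71, adjusted p = 4.06e-07).

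**Figure D5:**
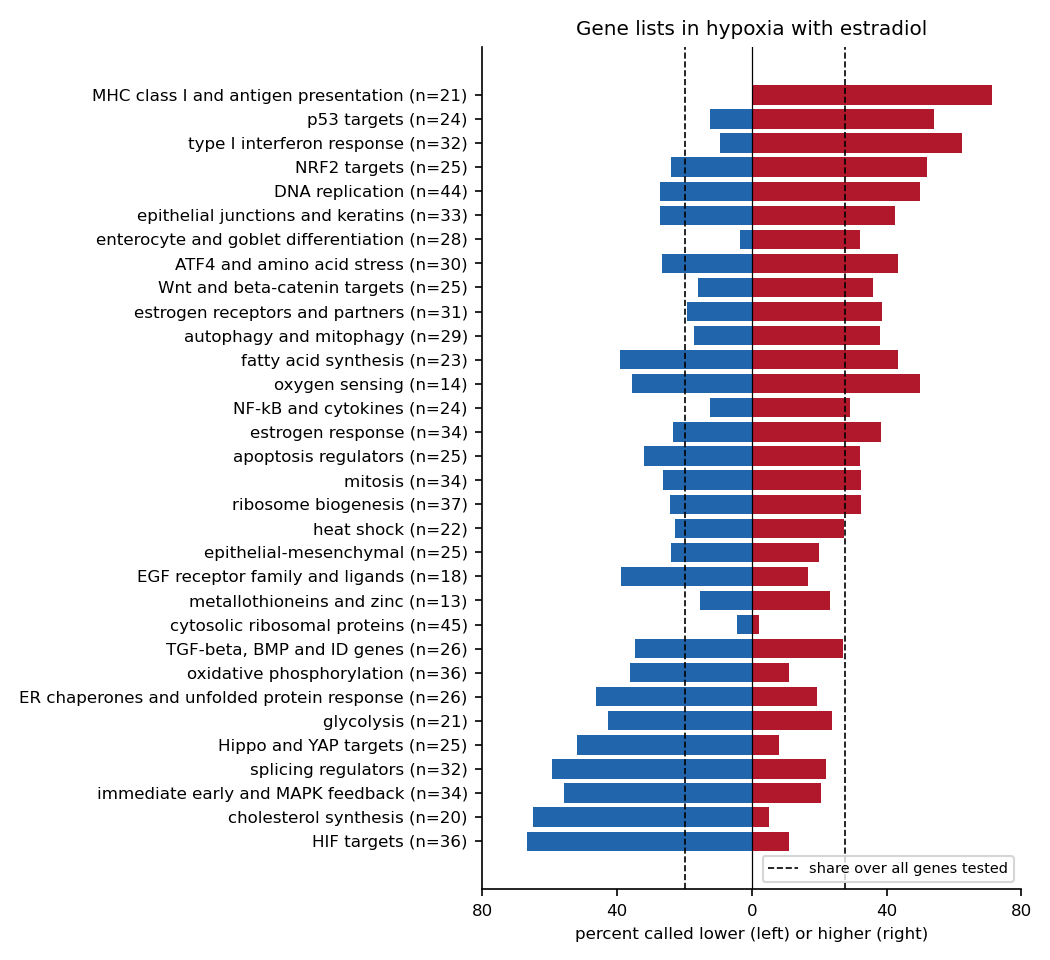
Percent of the measured genes of each list called lower (left) or higher (right) in ESR2 against parental cells in hypoxia with estradiol, in order of the list's median change, with dashed lines at the share over all genes (19.8% and 27.8%). Over the 7189 genes with a known span and a mean signal above 6, the shares were 36.2% lower and 35.4% higher. HIF targets (24 lower of 36) and cholesterol synthesis (13 of 20) lie at the lower end and antigen presentation (15 higher of 21) at the upper end.

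RNA processing and protein folding showed mixed lists. Splicing regulators were lower in 19 of 32 and higher in 7 (median -0.23), among them TRA2A (-1.76), SRSF4 (-1.68) and SRSF10 (-1.01), which bind exons, and the kinase CLK2 (-1.08). In hypoxia without estradiol 16 were higher and 8 lower, and the difference was called negative in 21 and positive in 5. Ribosome biogenesis was higher in 12 of 37 (32.4%) and lower in 9 (24.3%), with a median of 0.03, beside 27.8% and 19.8% over all genes. The counts in hypoxia without estradiol were 25 and 3, and 21 differences were negative and 6 positive. The methyltransferase NOP2 (0.98), the box C/D protein NOP56 (0.90) and the spermidine synthase SRM (0.87) were higher, and RRP1B (-0.75) lower. Among 45 ribosomal proteins 42 were not called (median -0.01): RPL27A (-0.62) and RPL23 (-0.22) were lower and RPLP2 higher (0.14, adjusted p = 0.05 as rounded). The call of RPLP2 was lost under 13 alternatives, among them each fit that left out 1 of the 6 arrays compared. Under an intensity trend with a robust prior 7 of them were higher and 6 lower.

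Of 26 chaperones and folding factors of the endoplasmic reticulum, 12 (46.2%) were lower and 5 (19.2%) higher (median -0.14), beside 19.8% and 27.8% over all genes. SDF2L1 (-0.88), MANF (-0.66) and ERP44 (-0.60) were lower; ERP44 had a change of -0.03 over the mean of its probe sets. PDIA3 (0.87), CALR (0.67), EDEM1 (0.45), CRELD2 (0.41) and EDEM2 (0.39) were higher. The call of EDEM2 was lost with the covariate (0.097), that of EDEM1 over the mean of probe sets (0.099), and the other probe set of PDIA3 was called lower (-0.40). Of 30 genes of ATF4, the factor of amino acid stress, 13 were higher and 8 lower (median 0.14). These are 43.3% and 26.7%, beside 27.8% and 19.8% over all genes. CEBPG (1.11), a partner of ATF4, and ASNS, asparagine synthetase (0.98), were higher, and PSPH, of serine synthesis, lower (-1.18). Heat shock genes were 6 higher and 5 lower of 22 (27.3% and 22.7%, beside 27.8% and 19.8% over all genes). The factor HSF1 (0.92) and the cochaperone DNAJA1 (0.67) were higher, and HSPA4 (-0.65), HSPA8 (-0.58), STIP1 (-0.32), HSP90AA1 (-0.26) and HSPD1 (-0.15) lower. With the control difference as a covariate the calls of STIP1 (-0.04), HSP90AA1 (-0.03) and HSPD1 (-0.04) were lost, that of STIP1 also over the mean of probe sets (-0.46) and that of HSPD1 also in 5 of the 6 fits that left out 1 of the arrays compared. CALR, EDEM1, CRELD2, EDEM2, STIP1, HSP90AA1 and HSPD1 were chosen after their values were seen.

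Of 25 targets of NRF2, the factor of oxidative stress, 13 (52%) were higher and 6 (24%) lower (median 0.22). The shares over all genes were 27.8% and 19.8%. NQO1, a quinone reductase, was higher by 1.02 both here and in normoxia with estradiol, and GCLM, of glutathione synthesis, was lower (-1.08). Among 13 metallothioneins and zinc genes MT1X (0.67), MT1F (0.33) and MT1M (0.22) were higher and the zinc-sensing factor MTF1 (-1.55) and the transporter SLC39A10 (-0.91) lower. These are 23.1% and 15.4%, beside 27.8% and 19.8% over all genes. MT1M had overlapping groups and lost its call in 4 of the 6 fits without 1 of the arrays compared (0.13 without parental replicate 3), and with the control difference as a covariate 1 gene was called higher. Of 29 autophagy genes 11 (37.9%) were higher and 5 (17.2%) lower (median 0.10), beside 27.8% and 19.8% over all genes. ATG4B (1.07), ATG2A (1.01), LAMP1 (0.80) and MAP1LC3B (0.78), the LC3 protein of the autophagosome, were higher, and ULK2 (-1.04), ATG7 (-0.75), LAMP2 (-0.63), BNIP3 (-0.50) and ATG12 (-0.30) lower. The call of ATG12 was lost with the covariate (-0.14) and that of BNIP3 over the mean of probe sets (-0.14). LAMP2 was 0.85 higher by the mean of its 9 probe sets, 5 of which were called higher. MT1M and the 5 lower autophagy genes were chosen after their values were seen.

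Of 25 Wnt targets 9 (36%) were higher and 4 (16%) lower (median 0.13), beside 27.8% and 19.8% over all genes. BAMBI, a decoy receptor of TGF-beta, rose by 1.74; MYC (-1.07), SOX9 (-0.95), DKK1 (-0.53), a secreted Wnt inhibitor, and BMP4 (-0.32) were lower. ETS2 was 0.95 higher at its brightest probe set and had a change of -0.11 over the mean of both. NF-kB targets were 7 higher and 3 lower of 24 (29.2% and 12.5%, beside 27.8% and 19.8% over all genes). The prostaglandin synthase PTGS2 (1.39) and the superoxide dismutase SOD2 (0.93) were higher, and the inhibitor TNFAIP3 (-1.35), NFKB1 (-0.66) and RELB (-0.47) lower. Without replicate 3 of parental cells 4 targets were higher, and with the control difference as a covariate 4 were higher and 5 lower. SOX9, BMP4 and RELB were chosen after their values were seen.

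Among 28 genes of enterocytes and goblet cells 9 (32.1%) were higher, beside 27.8% over all genes. The 1 lower gene (3.57%, beside 19.8%) was KLF4, a factor of goblet cells (-1.47). Without estradiol 2 were higher and 5 lower in hypoxia, and 14 differences were positive and 2 negative. CA2, a carbonic anhydrase of surface cells, read 10.42, 10.47 and 10.39 against 9.11, 9.03 and 8.96, 2.62-fold higher (1.39, SE 0.07, adjusted p = 4.3e-14). KRT20, the keratin of differentiated colon cells, rose by 1.27 from a low level, and ATOH1, the secretory lineage factor, by 0.36. With the control difference as a covariate 4 were higher and 1 lower. Of 33 junction genes and keratins 14 (42.4%) were higher and 9 (27.3%) lower (median 0.16), beside 27.8% and 19.8% over all genes. DSC2 (0.95) and KRT18 (0.70) were among the higher genes and CLDN4 (-0.80) among the lower. Epithelial-mesenchymal genes were 5 higher and 6 lower of 25 (20% and 24%, beside 27.8% and 19.8% over all genes). The repressors SNAI1 (0.87) and SNAI2 (0.82), MMP14 (0.75), S100A4 (0.55) and VIM (0.21) were higher, and the urokinase genes PLAU (-0.83) and PLAUR (-0.93) lower. ZEB1, a repressor of epithelial genes, fell by 1.00 on the log2 scale. VIM's call was lost with the control difference as a covariate (-0.003) and without replicate 2 or 3 of either group (0.18 to 0.21), and SNAI2, MMP14, S100A4 and VIM were chosen after their values were seen.

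Of the 5074 genes higher in ESR2 cells here, 2155 were also higher in hypoxia without estradiol (42.5% of them and 57.8% of those higher there), and 431 (8.49%) were lower there. Of the 3618 lower genes 1567 were also lower there (43.3% and 43.0%) and 652 were higher there. These comparisons share no arrays. The difference between them passed the threshold for 7661 genes (42%), 4275 (23.4%) more positive and 3386 (18.6%) more negative with estradiol, and the difference between hypoxia and normoxia under estradiol for 7043 genes (38.6%), 3749 (20.6%) and 3294 (18.1%). Past 2-fold the counts were 205 (1.12%) and 915 (5.02%) for the former and 546 (2.99%) and 1023 (5.61%) for the latter. HIRA, a histone chaperone, changed by -1.69 here and 1.62 in hypoxia without estradiol, a difference of -3.31 (SE 0.42, adjusted p = 1.24e-06), with 5.47, 5.55 and 4.78 against 6.45, 7.23 and 7.18. GRB10, an adaptor that restrains insulin signals, changed by -2.86 here and 0.05 there. FHOD3, a formin of actin filaments, and LMNB1, lamin B1 of the nuclear envelope, changed by -2.09 and -2.34 here and 0.70 and 0.42 there. The zinc finger gene ZNF789 changed by 1.81 here and -0.04 there, and FBXL17, an F-box protein, by -2.74 here and 0.54 in normoxia with estradiol.

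Markers of other cell types were looked at beside these lists. Keratins and EPCAM, which define epithelium, were bright in both groups: EPCAM averaged 11.42 ± 0.02 in ESR2 and 11.24 ± 0.02 in parental cells, and KRT18 11.22 ± 0.06 and 10.52 ± 0.03 (SD, n = 3). Markers of mature colon cells, VIL1, CEACAM5, LGALS4 and CDH17, were dim, between 3.07 and 3.70 in ESR2 cells. Of 14 colon epithelium markers 4 were higher (KRT18 0.70, GPA33 0.22, KRT19 0.20, EPCAM 0.17) and 2 lower (ESRP1 -0.60, ELF3 -0.51). These are 28.6% and 14.3%, beside 27.8% and 19.8% over all genes. In ESR2 cells 7 markers and in parental cells 8 averaged over 6. Without parental replicate 3 or without ESR2 replicate 2, 2 markers were higher. The calls of EPCAM and GPA33 were lost under 7 and 8 alternatives, and that of ELF3 over the mean of probe sets (-0.03). The summed level of the list, given as the mean over the list on each array, was 6.76 to 6.86 and 6.74 to 6.80.

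Of 12 fibroblast markers 3 (25%) were higher and 0 lower, beside 27.8% and 19.8% over all genes. The list means were 3.36 to 3.41 against 3.18 to 3.21, with no gene over 6 in either group. Higher were ACTA2, the smooth muscle actin (1.16), PDGFRB (0.24) and COL1A2 (0.24, with overlapping groups). Without ESR2 replicate 1 only 1 was called, and with the covariate the calls of PDGFRB (0.14) and COL1A2 (0.23) were lost. Of 11 leukocyte markers 5 (45.5%) were higher and 0 lower, at 3.79 to 3.80 against 3.40 to 3.48. CD68, a lysosomal protein that macrophages hold in plenty, was the 1 over 6, with 7.14, 7.15 and 7.40 against 5.80, 5.75 and 5.89; the others were LYZ (1.03), CD3D (0.41), NKG7 (0.30) and PTPRC (0.23, at 2.81 ± 0.08), and 3 were called without parental replicate 1. PTPRC and CD3D, which define leukocytes, were at the dim end of the array. For the embryonic kidney line in which the virus was made, 2 of 12 markers (16.7%) were higher (STMN2 0.32, GAL 0.24). ZIC2 (-0.78) was the 1 lower marker (8.33%). The list means were 4.57 to 4.66 against 4.55 to 4.57, with 2 genes over 6 in both groups. The part of any of these markers in the lists above was not tested. EPCAM, GPA33 and PTPRC were chosen after their values were seen.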

How the data were processed

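The series holds 24 arrays of HCT116 cells in 8 groups of 3. The authors' deposited values are log2 signals per probe set, and the submitters' processing notes name RMA and affy, with no versions. RNA integrity, per the labels, was 8.5 to 10. From the 49386 probe sets, 45253 named by 1 gene symbol were kept and the brightest per gene over all arrays was used, giving 18239 genes. Probe sets with several symbols (1327) or none (2713) and 93 controls were left out of the tests.

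limma 3.58.1 (R 4.3.3) fitted lmFit and eBayes to all 24 arrays with a mean for each group, leaving 16 residual degrees of freedom. Adjusted p-values are Benjamini-Hochberg over all genes within a comparison, with a threshold of 0.05. Single control values were compared by an exact two-sided permutation test. The fit was tested on simulated data. Figures were drawn with matplotlib 3.10.9. Array values give no counts, and the 3 arrays a group limit the precision.

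The members and the gene lists were chosen with earlier results of these data known, so counts over a list are descriptions. Of 944 listed symbols 886 were measured, and the others were not analysed here. Named by rule were the 15 largest rises and 15 largest falls past the threshold with groups that do not overlap, the 5 largest differences in each direction from either other condition, up to 4 genes per list by smallest p, and 10 receptors and oxygen sensors (ESR2, ESR1, GPER1, ESRRA, HIF1A, EPAS1, ARNT, HIF1AN, VHL and EGLN1). Genes said to be chosen after their values were seen fall outside it. Alternatives were another normalization, median centring, a filter on dim genes, the mean of probe sets, all probe sets, other priors and weights, the 6 arrays alone, the replicate block, the control difference as a covariate and leaving out arrays. The covariate fit with replicate 2 of parental normoxia without estradiol left out was chosen after seeing the data. Genomic spans (18192 genes) and promoters are those of RefSeq on GRCh38.p14. No batch or scan date is given in the sources used here.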

Additional observations from a re-analysis of the deposited data

Results flagged for a closer look

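Of all genes, 7661 had a contrast between ESR2 and parental cells in hypoxia that differed between the cultures with and without estradiol, by limma's test of the difference itself. The most positive differences (log2, with estradiol minus without) were those of IRF7 (2.07), AKR1B10 (1.98), ZNF789 (1.85), TP53I3 (1.77) and CD68 (1.73), and the most negative those of HIRA (-3.31), ARID1B (-3.30), GRB10 (-2.90), FHOD3 (-2.79) and LMNB1 (-2.76). Between hypoxia and normoxia under estradiol the contrast differed for 7043 genes. The most positive differences (hypoxia minus normoxia) were those of CCNE2 (3.74), IL17RB (3.49), TP53I3 (3.38), SLC35G1 (3.04) and TMEM38A (2.77), and the most negative those of LCORL (-3.63), IMMP2L (-3.61), ARID1B (-3.42), FBXL17 (-3.28) and DOCK1 (-3.24). The 3′ minus 5′ difference of the controls was 1.19 higher in ESR2 than in parental cells in hypoxia with estradiol. It averaged 2.10 in ESR2 and 2.36 in parental cells in hypoxia without estradiol, and 2.69 and 2.57 in normoxia with it. The part of the control difference in these results was not tested beyond the covariate.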

How the results depend on the processing

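For ESR2 against parental cells in hypoxia with estradiol, leaving out 1 of the arrays compared gave 7863 to 8347 genes, beside 8692 with all arrays. Without replicate 2 of parental normoxia without estradiol, which is not among the arrays compared, 9270 were called. The other settings gave 5937 to 9064 in hypoxia with estradiol. With the control difference as a covariate and replicate 2 of parental normoxia without estradiol left out, 2907 genes were higher there, 4345 differed from hypoxia without estradiol, and 1680 of these were more positive, beside 2697 more positive with the covariate alone. In normoxia with estradiol, array weights gave 4437 genes (2551 higher, 1886 lower), and a fit of the groups compared alone gave 3772 (1485 lower). Leaving out 1 of the arrays compared there gave 592 to 757 lower genes, beside 952 with all arrays. Without replicate 2 of parental normoxia without estradiol 1294 were lower. Over the mean of probe sets, the changes of STC2 (0.46), ETS2 (-0.11), ARNT (0.050) and LAMP2 (0.85) turned sign. With the covariate the change of VIM was -0.00263, and with that replicate left out too, those of ESR2 (-0.054) and GPA33 (-0.082) turned. The causes were not tested. Of 247 results on single genes, 223 kept direction and call over the mean of probe sets, 224 with the covariate and 215 with the covariate and that replicate left out. Among the lists, 5 p53 targets were lower with arrays centred on their medians, and 8 folding genes were higher after renewed quantile normalization. The replicate numbers did not pair the arrays (correlations of deviations 0.06, -0.001 and -0.04). With the replicate block 8582 genes were called in hypoxia with estradiol, 7178 in hypoxia without it, 2334 in normoxia with it, and 7432 and 6920 for the differences, and 244 of the 247 results kept direction and call.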
